A study of Mus musculus with 12 samples.

Results

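Glomeruli of mice lacking DACH1 in podocytes were compared after streptozotocin (STZ) and at baseline. Of the 12 glomerular RNA-seq libraries in the study, 6 entered the comparison, all those labelled podocyte-specific DACH1 knockout: 3 from STZ-treated mice and 3 from untreated mice. The features compared were the 13475 gene symbols listed in both sets of tables, of which 13473 passed the filter on low counts. The 3 control mice given STZ and the 3 control mice at baseline serve as the reference for the same change in mice labelled as controls. All 4 groups have a C57BL/6 background, and each of the 12 libraries comes from a different mouse. STZ was injected intraperitoneally at 50 µg/g a day for 5 days, and glomerular RNA was taken 10 days after the treatment. The baseline mice were 10 weeks old, whereas the age of the STZ mice at collection is not given in the sources used here. Neither the promoter that drives the podocyte deletion nor the deleted exons are given there. Titles of the STZ controls carry the abbreviation het and those of the baseline controls Ctrl, so whether both control groups carried the same alleles is not known here. Glomeruli were collected with magnetic beads perfused through the heart, and each library is bulk RNA of all cells held in those glomeruli.

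STZ is a glucose analogue that is toxic to the insulin-producing beta cells of the pancreas, and repeated low doses are a standard way to make mice diabetic. Podocytes are the epithelial cells that wrap the glomerular capillaries and close the filter with the slit diaphragm, and the mesangium and the fenestrated endothelium are the other main cells of the tuft. DACH1 is a nuclear protein of the dachshund family that binds DNA and represses transcription together with corepressor proteins, and in the adult kidney it is a marker of podocytes.

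Treatment and library set coincide in this design. The 3 knockout STZ libraries held 7.22e+07 to 7.86e+07 counts over 16293 listed genes, and the 3 knockout baseline libraries 2.26e+07 to 2.35e+07 over 13480. Every gene of the STZ tables reached 100 counts in at least 1 STZ library, while 362 genes of the baseline tables did not reach 100 in any baseline library. The effect of STZ and the effect of the set in which a library was made therefore cannot be told apart in any value below. Among the knockouts Xist and Ddx3y, which mark female and male RNA, showed 2 female and 1 male mouse at baseline and 1 female and 2 male mice after STZ. By the same genes the STZ controls were all male, while control baseline mice 1 and 2 were female and mouse 3 was male. Sex and STZ therefore largely coincide in the controls, and their parts in a control change cannot be told apart. The first principal component held 51% of the variance and spread the libraries within each group, and the second held 26.1% and separated STZ (-29.3 to -6.61) from baseline (12.9 to 25.9). Proximal tubule RNA differed widely between libraries. The mean level of 25 tubule genes (Kap, Slc34a1, Lrp2 and others) was 5.94, 8.37 and 8.78 log2 CPM in the baseline mice and 8.00, 6.78 and 6.48 in the STZ mice, so the groups overlapped. CPM are TMM-scaled counts relative to library size.

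Dach1 itself did not pass the test between STZ and baseline in the knockouts. Its level was 48.6, 55.8 and 58.4 CPM at baseline and 54.0, 65.7 and 66.0 CPM after STZ, so the groups overlapped. The log2 fold change was 0.19 (SE 0.13, adjusted p = 0.557). Control glomeruli held more, with a mean of 155 ± 42.5 CPM at baseline and 167 ± 17.8 CPM after STZ (SD over 3 mice, scaled within the controls). Reads from undeleted exons and from other cells count toward these values, so they describe the label without checking it.

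After STZ, 24 of 13473 genes differed in the knockouts at an adjusted p under 0.05 (0.178%), 15 higher (0.111%) and 9 lower (0.0668%). Here a log2 fold change is STZ over baseline, and its test is edgeR's quasi-likelihood test with Benjamini-Hochberg adjustment over all tested genes. In the controls the same test called 31 of 13473 genes (0.23%), 6 higher (0.0445%) and 25 lower (0.186%). The values of these genes in the controls are a description, since the genes were chosen by the fit in the knockouts. Among the 15 higher genes 10 had the same sign in the controls, none was called there, and the median log2 fold change was 0.43, against 1.28 in the knockouts. The difference between the genotypes passed its own test for 1 of the 15. The sign in the controls turned for Cyp26a1 without control baseline mouse 3 and for Ccbe1 in 2 of the 6 fits without 1 control library. All 9 lower genes had the same sign in the controls, 7 of them were also called there, and the medians were -2.57 in the knockouts and -2.47 in the controls. The sets of knockout and control libraries share no library but share the way treatment and library set coincide. Across 13472 genes the log2 fold changes of the 2 genotypes had a Pearson correlation of 0.442, given as a description over genes.

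**Figure D1:**
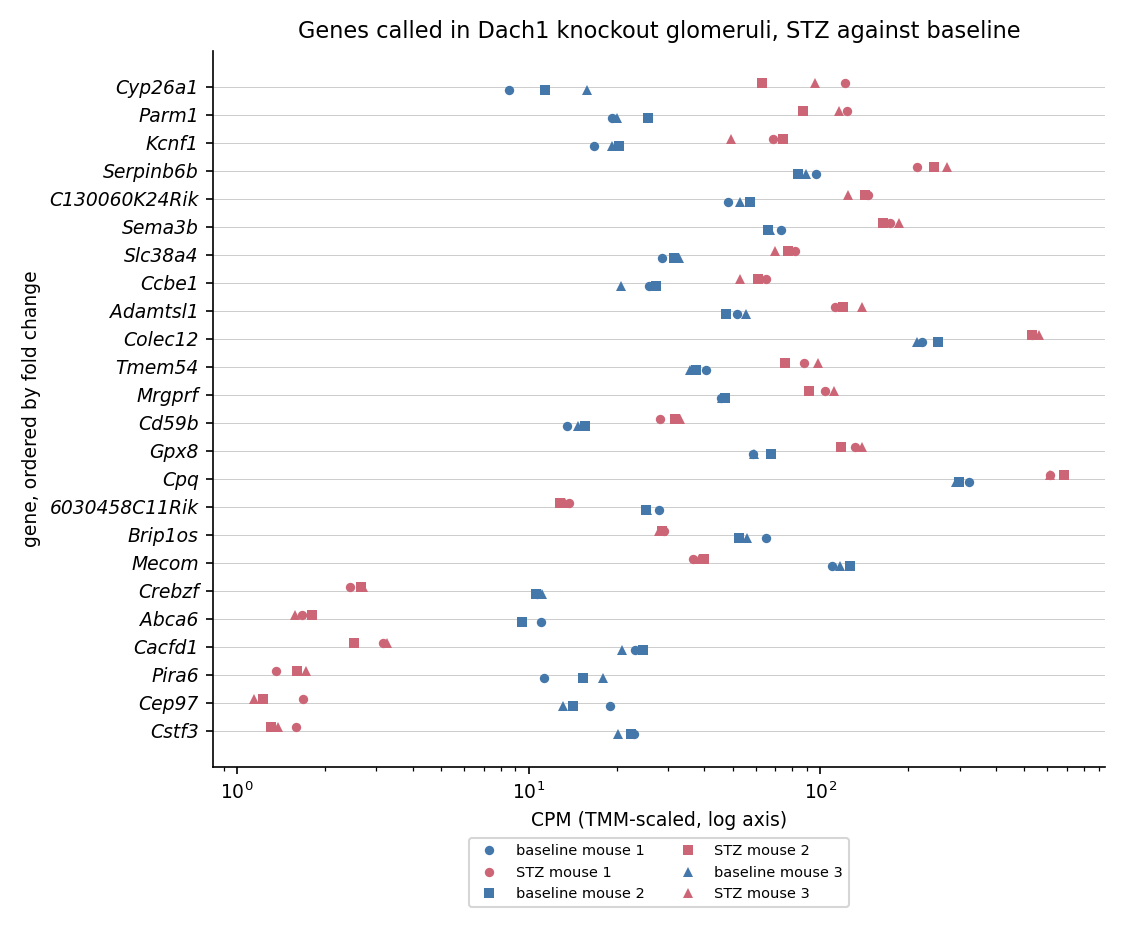
CPM (log axis) of the 24 called genes in each of the 6 knockout libraries, with STZ mice in red, baseline mice in blue and marker shapes for the mice, which are not paired. Each of the 24 genes has its 3 STZ values on one side of its 3 baseline values, and 6 genes at the bottom lie between 1 and 4 CPM after STZ.

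Among the called genes the largest rise was that of Cyp26a1, the cytochrome P450 that breaks down retinoic acid and is itself a classic target of retinoic acid. Its level was 8.53, 11.4 and 15.9 CPM in the baseline knockouts and 122, 62.9 and 95.5 CPM in the STZ knockouts. The lowest STZ mouse lay far above the highest baseline mouse. The log2 fold change was 2.97 (SE 0.33, adjusted p = 0.0418). Controls held 10.1 ± 11.2 CPM at baseline and 5.99 ± 2.11 CPM after STZ, a log2 fold change of -0.75 that rested on control baseline mouse 3 (0.69 without it). The difference between the genotypes, 3.71 on the log2 scale, did not pass its test (unadjusted p = 0.00318, adjusted p = 0.938).

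The retinaldehyde dehydrogenase Aldh1a1, which acts at the last step of retinoic acid synthesis, had an adjusted p of 0.0506, just outside the threshold. Its level was 59.6, 35.4 and 50.9 CPM at baseline and 187, 350 and 319 CPM after STZ, so the groups did not overlap, with a change of 2.55 on the log2 scale (SE 0.30). In controls it averaged 6.33 CPM at baseline and 13.8 CPM after STZ. The other retinoid genes were tallied in a list chosen after values of these data had been seen. Of its 17 measured members, Cyp26a1 was called, 3 had an unadjusted p under 0.05 with a higher level and 4 with a lower one, and the list's median was -0.03 (-0.09 to 0.11 without 1 library) against -0.02 for all genes. In the background, 7.81% of all genes reached an unadjusted p under 0.05 with a higher level and 6.9% with a lower one. Rarres1, named for its induction by retinoids, was the third of the higher members, at 12.6 ± 3.48 and 31.4 ± 3.52 CPM (log2 fold change 1.32, adjusted p = 0.101). The lower members were Dhrs3, a reductase that returns retinaldehyde to retinol (-0.72), and the receptors Rarg (-0.67), Rara (-0.51) and Rxra (-0.51), with adjusted p-values of 0.107 to 0.155. Cyp26b1, the paralogue of Cyp26a1 that also degrades retinoic acid, ranged from 119 to 1330 CPM at baseline and from 49.5 to 423 CPM after STZ, and the groups overlapped.

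The promoter of Cyp26a1 is shown because the classical retinoic acid response element lies in it. Promoters of 300 bases, from 250 before to 50 after a start listed for the gene, were taken from RefSeq for GRCm38.p6. They were searched on both strands for the direct repeat known as DR5, a half-site AGGTCA or AGTTCA followed by any 5 bases and again AGGTCA or AGTTCA. Such a repeat occurred in 13 of 32851 promoters (0.0396%). Of the 24 called genes, 14 had a promoter in the table and 1 of those, Cyp26a1, held the repeat, with AGTTCA at both places, on the strand opposite to the gene at chr19:37697776-37697792. The promoter, at chr19:37697558-37697857 on the plus strand, reads as follows, with the 2 matched repeats in capitals as they appear on the strand of the gene.
Cyp26a1: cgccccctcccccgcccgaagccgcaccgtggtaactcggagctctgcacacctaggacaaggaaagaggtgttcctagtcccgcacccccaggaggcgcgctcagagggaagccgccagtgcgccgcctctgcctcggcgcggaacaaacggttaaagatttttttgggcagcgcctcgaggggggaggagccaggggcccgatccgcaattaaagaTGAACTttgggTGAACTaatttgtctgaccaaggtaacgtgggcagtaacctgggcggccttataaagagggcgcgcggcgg
The RefSeq span of Cyp26a1 begins at chr19:37697738, before the start that this promoter uses, so the match lies within that span. The match is a description of these letters and was not tested for binding.

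Adamtsl1, a secreted protein built like the ADAMTS proteases but without the protease domain, was the single gene whose change with STZ differed between the genotypes past the threshold, 1 of 13475 genes (0.00742%). The gene lies at chr4:85513852-86428390. In the knockouts it measured 51.8, 47.5 and 55.5 CPM at baseline and 112, 119 and 139 CPM after STZ, or 1.26 on the log2 scale (SE 0.13, adjusted p = 0.0323). In the controls its level was lower in both groups, at 5.30 ± 0.516 CPM at baseline and 4.40 ± 0.399 CPM after STZ, a log2 fold change of -0.27. The difference between the changes was 1.52 (SE 0.17, adjusted p = 0.0440). In the 12 fits that left out 1 library each, that difference ran from 1.43 to 1.59, and its adjusted p from 0.0708 to 0.177. Among the 18 measured ADAMTS and ADAMTS-like genes, a list also chosen after values were seen, Adamtsl1 was the called one, and Adamtsl4 (0.66, adjusted p = 0.125) and Adamts4 (1.16, adjusted p = 0.219) were next.

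Parm1, a mucin-like membrane protein of the Golgi and endosomes, was next in the test of the difference and missed its threshold (2.86, SE 0.36, adjusted p = 0.0578). Its level in the knockouts was 19.3, 25.6 and 20.1 CPM at baseline and 123, 87.5 and 116 CPM after STZ, or 2.33 on the log2 scale (SE 0.19, adjusted p = 0.0137). In the controls Parm1 stayed low in both groups, at 4.66 ± 0.518 and 3.20 ± 1.24 CPM. C130060K24Rik, a clone-named transcript, had the same layout. The knockouts held 48.3, 57.2 and 52.9 CPM at baseline and 146, 143 and 125 CPM after STZ (log2 fold change 1.38, adjusted p = 0.0178), while the controls held 0.989 ± 0.0897 and 0.878 ± 0.178 CPM (adjusted p of the difference 0.0973). Kcnf1, a silent subunit of voltage-gated potassium channels, differed from these. In the knockouts it was 16.8, 20.3 and 19.3 CPM at baseline and 68.8, 74.5 and 49.5 CPM after STZ (1.77, adjusted p = 0.0342), but the baseline controls spread over 51.2 ± 38.0 CPM, above the STZ controls at 15.7 ± 4.88 CPM.

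**Figure D2:**
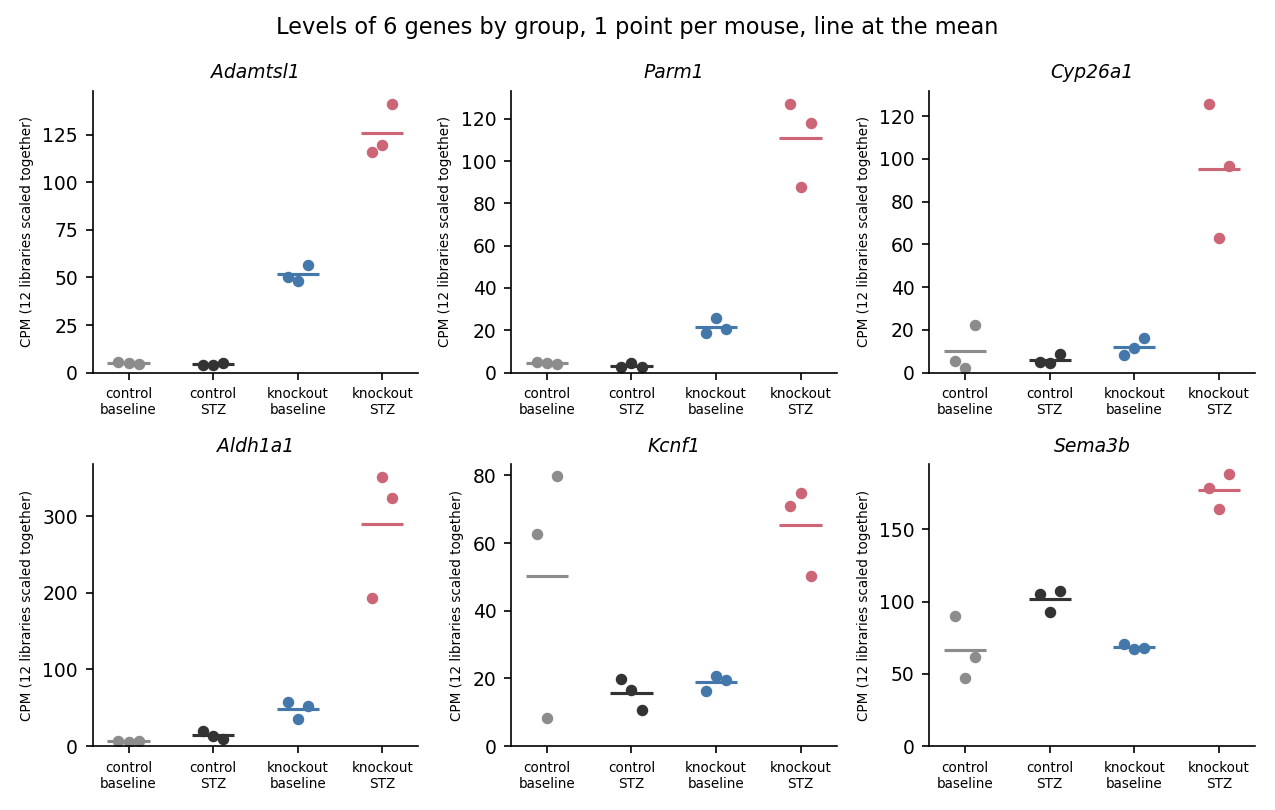
CPM (linear axes, all 12 libraries scaled together) of 6 genes in the 4 groups, with 1 point per mouse and a line at the mean. Adamtsl1, Parm1 and Aldh1a1 are low in both control groups and highest in the STZ knockouts, Kcnf1 is high in 2 of 3 baseline controls, and Sema3b is higher after STZ in both genotypes.

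The other secreted and cell-surface genes that rose had smaller values of change in the controls, mostly of the same sign, and for none of them did the difference between genotypes pass its test. Sema3b, a class 3 semaphorin that guides axons and vessels through neuropilin and plexin receptors, was 73.0, 66.3 and 67.0 CPM at baseline and 173, 164 and 186 CPM after STZ. Its log2 fold change was 1.34 (SE 0.10, adjusted p = 0.0118), the smallest adjusted p among the 15 higher genes, against 0.59 in the controls. Of 14 measured class 3 semaphorins and receptors, a list chosen after values were seen, Sema3b was the called one, and its receptor partner Nrp1 stood at 2735, 2356 and 2036 CPM at baseline and 1410, 1477 and 1136 CPM after STZ (-0.82, adjusted p = 0.138). Colec12, a scavenger receptor of the collectin family, was 223, 254 and 214 CPM at baseline and 533, 533 and 563 CPM after STZ (1.24, adjusted p = 0.0251). Ccbe1, a secreted factor that promotes the processing of VEGF-C, was 24.6 ± 3.46 CPM at baseline and 59.7 ± 6.25 CPM after STZ (1.28, adjusted p = 0.0490), with 10.5 and 11.1 CPM in the controls. Cd59b, a mouse form of the membrane inhibitor of the complement attack complex, was 14.6 ± 1.04 and 31.0 ± 2.46 CPM (1.08, adjusted p = 0.0387). Mrgprf, an orphan G protein-coupled receptor, was 46.3 ± 0.708 and 102 ± 9.90 CPM (1.14, adjusted p = 0.0275).

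Among transporters and enzymes, Slc38a4, a sodium-coupled amino acid transporter, was 28.6, 31.5 and 32.7 CPM at baseline and 81.9, 77.6 and 69.9 CPM after STZ (1.30, adjusted p = 0.0178), with a control change of 0.46. Serpinb6b, an intracellular serine protease inhibitor, was 96.9, 83.5 and 89.5 CPM at baseline and 214, 245 and 272 CPM after STZ (1.44, adjusted p = 0.0214), and its change in the controls was 0.99. The membrane protein Tmem54 had a log2 fold change of 1.20 (adjusted p = 0.0388). Gpx8, a glutathione peroxidase of the endoplasmic reticulum (1.07, adjusted p = 0.0388), and Cpq, a secreted carboxypeptidase (1.06, adjusted p = 0.0388), complete the 15. Serpinb6b and Cd59b have close paralogues whose reads the counting could share, so their values are uncertain. Of the 15 higher genes, 3 share exonic bases with another gene in GENCODE M21 (Cpq, Tmem54 and Ccbe1, at most 4.66% of their exonic length), against 36.3% of the tested genes found there.

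These calls rest on all 6 libraries. When 1 library was left out, 1 to 10 genes were called, and 13 of the 15 higher genes were called in none of those 6 fits. Sema3b and Serpinb6b were each called in 1. The changes themselves moved little, for Cyp26a1 from 2.72 to 3.23 and for Sema3b from 1.29 to 1.38. With sex as a covariate 9 genes were called, 8 of them among the 24. Of the 15 higher genes Cyp26a1 alone kept its call in that fit (adjusted p = 0.0275), and Sema3b and Parm1 were each at 0.0572. With the tubule mean as a covariate 260 were called, including all 24.

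The 9 lower genes had log2 fold changes of like size in both genotypes. Cstf3, a subunit of the factor that cleaves mRNA for polyadenylation, had the smallest adjusted p of all genes. It was 23, 22.5 and 20.2 CPM in the baseline knockouts and 1.58, 1.30 and 1.38 CPM in the STZ knockouts, or -3.94 on the log2 scale (SE 0.14, adjusted p = 0.000869), against -3.77 in the controls. Cstf3 was the 1 gene called in all 6 fits that left out a library. Cep97, which restrains the assembly of cilia at the centriole, was 19, 14.1 and 13.1 CPM at baseline and 1.68, 1.23 and 1.14 CPM after STZ (-3.51, adjusted p = 0.00661, controls -3.57). Cacfd1, a membrane protein with a calcium channel flower domain, was 23.2, 24.7 and 20.9 CPM at baseline and 3.17, 2.52 and 3.26 CPM after STZ (-2.94, adjusted p = 0.00443, controls -3.03).

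Abca6, a lipid transporter of the ABC family, had a log2 fold change of -2.57 (adjusted p = 0.00607, controls -2.47), and Crebzf, a basic leucine zipper protein, one of -2.05 (adjusted p = 0.00650, controls -2.30). Pira6, of the paired immunoglobulin-like receptors, was at -3.25 (adjusted p = 0.00661, controls -2.75), and belongs to a multigene family in which reads may be shared. For these 6 genes the counts after STZ lay between 83.5 and 240, near the level of 100 that every gene of the STZ tables reached in at least 1 library. Cstf3 had 120, 103 and 102 counts after STZ and 512, 543 and 453 at baseline, although the STZ libraries were deeper. Crebzf had 184, 210 and 199 counts after STZ and 238, 256 and 248 at baseline. The part of this listing level in the values was not tested.

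Mecom, a zinc finger transcription factor of the PRDM family, was the lower gene with the highest level. It was 109, 126 and 117 CPM at baseline and 36.5, 39.9 and 38.3 CPM after STZ, or -1.62 on the log2 scale (SE 0.10, adjusted p = 0.00650). In the controls it measured 130 ± 32.4 and 50.0 ± 7.40 CPM (-1.38), with an adjusted p of 0.0799. Brip1os, a long noncoding RNA, was 64.9, 52.6 and 56.1 CPM at baseline and 29.1, 28.6 and 28.1 CPM after STZ (-1.02, adjusted p = 0.0418, controls -1.05). It shares 20.2% of its exonic bases with Med13 and Ints2 on the opposite strand, and without a stated strand setting their reads cannot be told apart. The clone-named 6030458C11Rik was at -0.98 (adjusted p = 0.0342, controls -0.88). For the 9 lower genes the smallest adjusted p for a difference between the genotypes was 0.975.

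**Figure D3:**
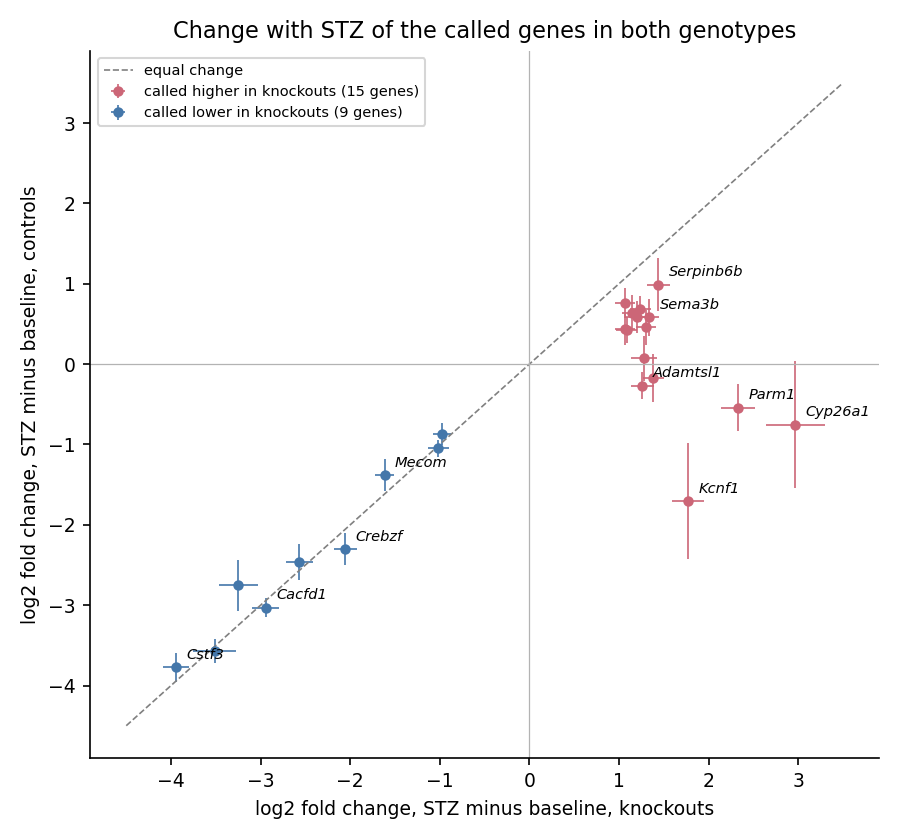
Log2 fold change (STZ minus baseline) of the 24 called genes in knockouts (horizontal) and controls (vertical), with bars of 1 SE and a dashed line of equal change. The 9 lower genes lie along the dashed line, whereas the 15 higher genes lie below it, 5 of them below 0 in the controls, where Cyp26a1 stands at 0.69 without control baseline mouse 3.

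Apart from Adamtsl1, no gene passed the test of the difference between genotypes, where 496 of 13475 genes had an unadjusted p under 0.05 (3.68%). The genes named for it by rank are given by their values. Postn, a matricellular protein, averaged 10.1 and 7.79 CPM in the knockouts and 19.7 and 6.73 CPM in the controls (adjusted p of the difference 0.0973). Camk2a, a calmodulin-dependent kinase, was 14.5, 21.6 and 16.6 CPM at baseline and 37.7, 39 and 51.9 CPM after STZ in the knockouts, against 13.3 and 6.06 CPM in the controls (adjusted p = 0.163). Fbln5, an elastic fibre protein, was 43.0 ± 4.97 and 84.6 ± 22.1 CPM in the knockouts and 58.5 and 35.2 CPM in the controls (adjusted p = 0.163). In the other direction Efna1, a membrane-bound ephrin, was 56.0 ± 6.40 and 27.5 ± 6.77 CPM in the knockouts and 60.1 and 59.3 CPM in the controls (adjusted p = 0.560). Gdnf, a ligand of the RET receptor, was 6.75 and 3.53 CPM in the knockouts and 6.51 and 8.32 CPM in the controls (adjusted p = 0.836). Piga, Gtf2h2 and Sost had differences of -1.09, -0.85 and -1.27, with adjusted p-values of 0.938 to 0.975.

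No member of the 39 gene lists for cell types and pathways was called in the knockouts. Their members are therefore described by levels, by unadjusted p-values and by whether the 3 STZ values lay wholly above or below the 3 baseline values. Over all tested genes, 14.7% had an unadjusted p under 0.05, and 11.2% lay wholly above and 10.4% wholly below. In bulk RNA, fewer cells of a type and less RNA per cell cannot be told apart.

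Podocyte genes were mostly at higher values after STZ. Among 20 other podocyte markers the median log2 fold change was 0.53, with 11 at an unadjusted p under 0.05 and all 11 higher, and 12 wholly above baseline and none wholly below. In the controls the median of the same list was 0.31. Ptgds, a prostaglandin D synthase, was 2.96, 4.89 and 4.11 CPM at baseline and 12.7, 17.9 and 16.0 CPM after STZ (1.96, adjusted p = 0.0503). Clic3, a chloride channel family protein, was 205 ± 13 and 418 ± 62.2 CPM (1.03, adjusted p = 0.0700). The vesicle GTPase Rab3b measured 127 ± 8.31 and 303 ± 75.5 CPM (1.25), and the cell cycle inhibitor Cdkn1c 302 ± 91.0 and 683 ± 37.3 CPM (1.18), with adjusted p-values of 0.0931 and 0.114. In the controls those log2 fold changes were 0.47 for Ptgds, 0.22 for Clic3, -0.22 for Rab3b (-0.01 without control baseline mouse 3) and 0.40 for Cdkn1c.

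The remaining podocyte lists were nearer to the median of all genes. Of 14 slit diaphragm genes, 11 had a positive log2 fold change, and the median was 0.16, with 0.04 without STZ mouse 2, 0.07 without baseline mouse 3 and 0.26 without baseline mouse 1. Nphs1 (nephrin) was 2414 ± 118 and 2979 ± 281 CPM (0.30, adjusted p = 0.412). Of 17 cytoskeleton and adhesion genes, 15 were positive, the median was 0.28, and 7 lay wholly above baseline, among them Cldn5 (0.83), Rhpn1 (1.00) and Dag1 (0.59). Of 13 podocyte transcription factors the median was 0.17 (0.09 without baseline mouse 3). Tcf21 was 88.0 ± 13.6 and 145 ± 13.6 CPM (0.72, adjusted p = 0.122), and Wt1, at 441 ± 106 and 505 ± 18.2 CPM, overlapped between the groups.

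The list of Dach1 partners and PTIP complex genes had 17 measured members with a median of -0.03 (-0.13 without STZ mouse 2 and 0.01 without STZ mouse 1). Eya4, a phosphatase and coactivator of the eyes absent family, was 50.5, 40.7 and 48.9 CPM at baseline and 79.8, 82.0 and 105 CPM after STZ (0.93, adjusted p = 0.0992). Nell2, a secreted glycoprotein, was 325 ± 66.0 and 579 ± 49.9 CPM (0.83, adjusted p = 0.129), with a control change of -0.03 (-0.42 to 0.46 without 1 control library). Paxip1, the PTIP gene, was at -0.30 (adjusted p = 0.406).

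Mesangial genes stood lower after STZ in both genotypes. Of 14 measured members, 13 had a negative log2 fold change, 12 had an unadjusted p under 0.05, 12 lay wholly below baseline, and the median was -0.80 in the knockouts and -0.89 in the controls. Agtr1a, the angiotensin receptor through which mesangial cells contract, was 295, 304 and 289 CPM at baseline and 169, 195 and 147 CPM after STZ (-0.80, adjusted p = 0.0992). Gata3, a transcription factor of the mesangium, was 153, 165 and 181 CPM at baseline and 80.2, 95.6 and 57.7 CPM after STZ (-1.10, adjusted p = 0.103). The secreted WNT modulator Sfrp2 averaged 894 ± 191 and 327 ± 93.9 CPM (-1.45, adjusted p = 0.108), and the receptor Pdgfrb 762 ± 109 and 427 ± 111 CPM (-0.84, adjusted p = 0.171). The list's median lay between -0.99 and -0.65 over the alternative fits.

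Endothelial genes were also lower in value, with 21 of 23 negative and a median of -0.34 in the knockouts (-0.53 without STZ mouse 2) and -0.36 in the controls (-0.54 without control STZ mouse 1). Of the 23, 7 lay wholly below baseline and 1 wholly above. Ehd3, a marker of glomerular capillaries, was 3434, 2235 and 2632 CPM at baseline and 1196, 1639 and 1436 CPM after STZ (-0.96, adjusted p = 0.143). Tek, the angiopoietin receptor, was 518 ± 72.3 and 316 ± 50.3 CPM (-0.71), and Kdr, the main VEGF receptor, 1774 ± 283 and 1219 ± 89.4 CPM (-0.54). Sost was the member wholly above, at 32.4, 40.9 and 51.7 CPM at baseline and 103, 52.0 and 70.6 CPM after STZ. Its log2 fold change was 0.85 in the knockouts (adjusted p = 0.253). In the controls it was 2.12, and Sost was called there (adjusted p = 0.00598). The list of other podocyte markers thus stood higher in the same libraries in which the mesangial and endothelial lists stood lower. The slit diaphragm means overlapped, at 7.29 log2 CPM in STZ mouse 1 and 7.30 in baseline mouse 1. The part of cell shares in these values was not tested.

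**Figure D4:**
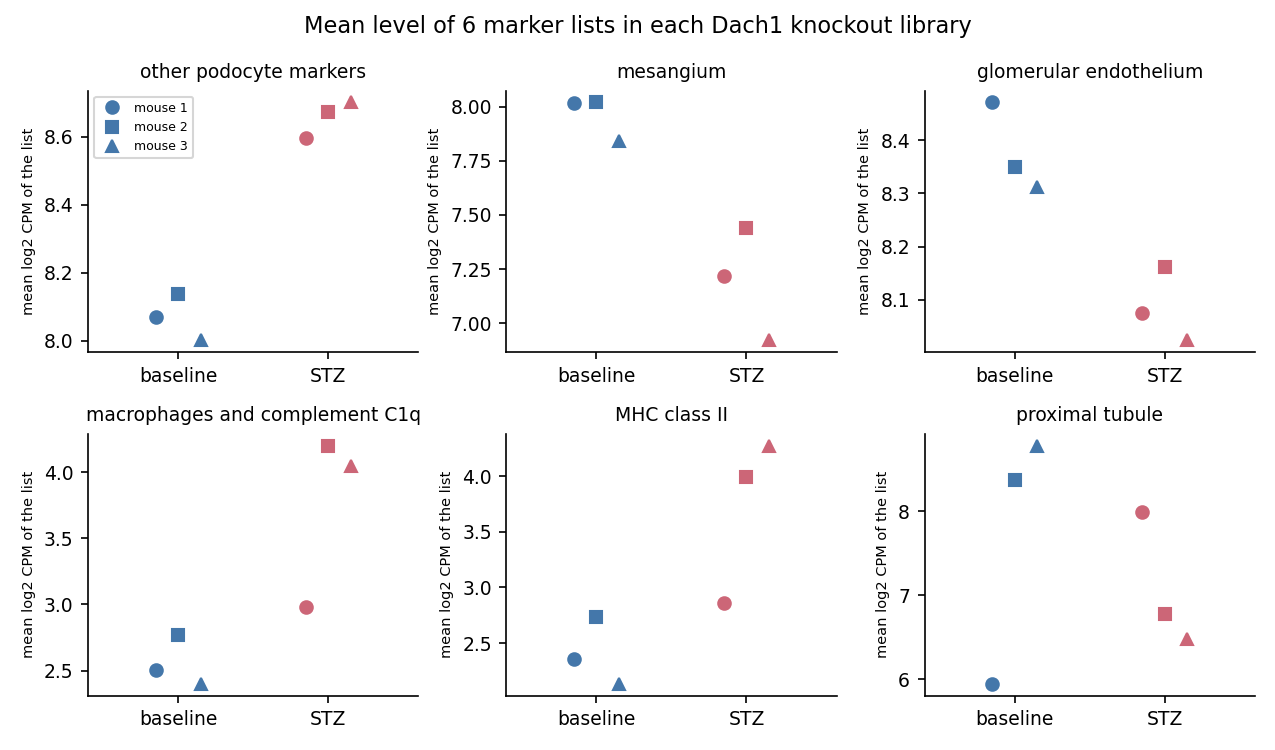
Mean log2 CPM of 6 marker lists in each knockout library (vertical axes do not start at 0 and differ between panels), baseline in blue and STZ in red. Means of the other podocyte markers are higher and mesangial and endothelial means lower in every STZ mouse. STZ mouse 1 is the lowest of its group for macrophages and MHC class II, and the tubule means overlap.

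Smooth muscle and renin genes shared no direction in the knockouts. Of 9 measured members 6 were positive and 3 negative, and the median was 0.21, or -0.0053 without STZ mouse 3. In the controls 0 of the 9 were positive, with a median of -0.38, and 2 were positive without control STZ mouse 2. Tagln, an actin-binding protein of smooth muscle, was 210, 89.7 and 155 CPM at baseline and 709, 338 and 1560 CPM after STZ (2.52, adjusted p = 0.152), while Acta2, smooth muscle actin, overlapped at 77.3 ± 10.9 and 89.2 ± 24 CPM. Ren1, the renin gene, was 114, 153 and 187 CPM at baseline and 288, 198 and 349 CPM after STZ (0.88, adjusted p = 0.216). In the controls Tagln was at -0.49 and Ren1 at -0.18, and without control baseline mouse 3 they were at -0.02 and 0.08.

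Macrophage genes and MHC class II genes were higher in value in both genotypes, from low levels. Of 12 measured macrophage genes, 11 were positive and 7 lay wholly above baseline, and the median was 0.93 in the knockouts and 1.39 in the controls. The control value rested largely on control STZ mouse 1, without which it was 0.44. The list's mean level was 2.50, 2.76 and 2.40 log2 CPM in the baseline mice and 2.98, 4.20 and 4.05 in the STZ mice, against 2.38, 2.94 and 2.37 in the baseline controls and 5.38, 3.24 and 3.00 in the STZ controls. C1qb, a chain of the first complement component, was 1.17, 2.32 and 1.07 CPM at baseline and 3.41, 24.4 and 19.2 CPM after STZ (3.36, adjusted p = 0.145). Lyz2, lysozyme of myeloid cells, was 18.4, 21.8 and 10.7 CPM at baseline and 31.2, 72.4 and 103 CPM after STZ (2.02, adjusted p = 0.150). Mrc1, the mannose receptor, was the exception at 218 ± 33.1 and 119 ± 37.9 CPM (-0.87, adjusted p = 0.195).

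All 7 measured MHC class II genes were positive, with a median of 1.00 (controls 1.16, and 0.77 without control STZ mouse 1), and H2-Aa was 18.3, 17.1 and 10.5 CPM at baseline and 26.3, 73.6 and 88.2 CPM after STZ (2.04, adjusted p = 0.145). STZ mouse 1 was the lowest of its group for C1qb, Lyz2 and H2-Aa. Among 13 chemokine, adhesion and NF-kappaB genes the median was 0.59, and 5 lay wholly above baseline. Sele, the endothelial selectin that captures leukocytes, was 8.80, 7.16 and 6.07 CPM at baseline and 16.5, 37.2 and 28.6 CPM after STZ (1.90, adjusted p = 0.0992).

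Endoplasmic reticulum stress and chaperone genes were mostly at negative values in the knockouts. Of 18 measured members of the stress list, 13 were negative, 5 lay wholly below and 1 wholly above baseline, and the median was -0.21. In the controls 4 of the 18 were positive, and 17 were positive without control STZ mouse 3. The control median was -0.10, from -0.51 without control STZ mouse 2 to 0.22 without control STZ mouse 3. Creld2 was 91.7, 78.6 and 68.3 CPM at baseline and 38.6, 45.8 and 37.1 CPM after STZ (-0.97, adjusted p = 0.0891). Manf, a secreted protein induced by unfolded proteins, was 178, 131 and 131 CPM at baseline and 69.1, 87.6 and 68.9 CPM after STZ (-0.97, adjusted p = 0.104). Herpud1 (-0.66), the chaperone Hspa5 (BiP, -0.65) and the transcription factor Xbp1 (-0.53) had adjusted p-values of 0.117 to 0.314, and Asns, an amino acid response gene, was at 0.73. In the controls Creld2 was at -0.33, Manf at -0.17 and Hspa5 at -0.15, which became -1.07, -0.84 and -0.94 without control STZ mouse 2 and 0.04, 0.24 and 0.27 without control STZ mouse 3, and none of these differences between genotypes passed the test (adjusted p = 0.975 for each). Without baseline mouse 1, which had the highest Hspa5, Manf and Xbp1, the list's median was -0.010.

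Promoters of these chaperone genes are shown because several carry the endoplasmic reticulum stress response element. The element was taken as CCAAT, any 9 bases and CCACG. It was searched on both strands and occurred in 39 of 32851 promoters (0.119%) and in 5 of the 16 list members that have a promoter in the table. The matches were at chr2:34772025-34772043 for Hspa5, chr15:88819520-88819538 for Creld2, chr8:84847075-84847093 for Calr, chr12:17266491-17266509 for Pdia6 and, as 2 matches, chr10:86705638-86705656 and chr10:86705533-86705551 for Hsp90b1. Each is printed in the direction of the motif with the fixed letters in capitals.
Hspa5: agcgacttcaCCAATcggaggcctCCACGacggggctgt
Creld2: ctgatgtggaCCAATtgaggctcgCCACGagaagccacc
Calr: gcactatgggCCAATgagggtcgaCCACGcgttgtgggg
Pdia6: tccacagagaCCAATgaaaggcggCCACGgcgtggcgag
Hsp90b1, first match: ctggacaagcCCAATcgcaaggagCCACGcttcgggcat
Hsp90b1, second match: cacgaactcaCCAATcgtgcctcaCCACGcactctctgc
Holding the letters did not go with 1 size of change: the log2 fold changes were -0.65 for Hspa5, -0.97 for Creld2, -0.32 for Calr, 0.03 for Pdia6 and -0.24 for Hsp90b1.

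Cytosolic heat shock genes showed single mice that stood apart in both genotypes. Of 12 members, 11 were at negative values. The list's median was -0.66, against 0.34 in the controls, and 1 gene lay wholly below baseline. Hspb1 was 443, 160 and 140 CPM at baseline and 87.0, 105 and 66.4 CPM after STZ (-1.52, adjusted p = 0.223), and Hspa1b was 539, 28.2 and 101 CPM at baseline and 78.4, 103 and 30.6 CPM after STZ. Baseline mouse 1 was the highest of its group in both, and without it the list's median was -0.18. In the controls the median was -1.03 without control STZ mouse 2, so it was positive through that mouse, whose list mean of 8.89 log2 CPM stood above the 7.10 and 6.55 of the other STZ controls.

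Matrix genes differed among themselves. Of 23 interstitial and mesangial matrix genes, 8 lay wholly above and 3 wholly below baseline in the knockouts, with a median of -0.04 (0.07 without baseline mouse 1 and 0.03 without baseline mouse 3), whereas the controls had a median of -0.73 (-0.43 without control baseline mouse 3) and 2 of 23 positive. Fn1, fibronectin, was 110, 67.7 and 87.8 CPM at baseline and 180, 154 and 193 CPM after STZ (0.99, adjusted p = 0.115), and its control means were 22.4 and 22.9 CPM. Lox, the collagen crosslinking enzyme, was at 0.58 and -0.95 in knockouts and controls, and Tnc, tenascin C, at 0.47 and -0.64. Without control baseline mouse 3 the control values were -0.26 for Lox and -0.27 for Tnc. No matrix gene passed the test of the difference between the genotypes. Among 19 basement membrane genes the median was -0.10 (-0.17 without STZ mouse 2). The mesangial and endothelial chains Col4a1 (-0.66, adjusted p = 0.302) and Lamb1 (-0.58, adjusted p = 0.114) were wholly below baseline. For Col4a1 this held narrowly. With all 12 libraries scaled together it overlapped, at 1534 CPM in STZ mouse 2 and 1507 CPM in baseline mouse 1. Col4a6 (0.60) and Npnt (0.52), a podocyte-made ligand of integrin alpha 8, were wholly above.

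Genes tied to glucose and genes tied to insulin were tallied in separate lists. Of 17 glucose-responsive genes 1 lay wholly above and 1 wholly below baseline, and Txnip, the best known of them, was 1276 ± 159 and 1204 ± 261 CPM with overlapping groups. Gfpt2, of the hexosamine pathway, was 12.7, 12.1 and 11.3 CPM at baseline and 5.47, 6.26 and 3.74 CPM after STZ (-1.22, adjusted p = 0.102). Of 18 insulin and FoxO genes, 4 lay wholly below baseline and 1 wholly above, against 10.4% and 11.2% of all genes. At an unadjusted p under 0.05, 5 were lower and 1 higher, against 6.9% and 7.81% of all genes. Of the 18, 14 were negative with a median of -0.33, but without baseline mouse 1 the median was 0.0035 and 9 were positive. Foxo1 was 160, 124 and 117 CPM at baseline and 85.8, 99.4 and 89.6 CPM after STZ (-0.55, adjusted p = 0.181). Pck1, a gluconeogenic enzyme made in the proximal tubule, was 308, 1156 and 757 CPM at baseline and 215, 256 and 117 CPM after STZ (-1.92, adjusted p = 0.184). With all libraries the 25 proximal tubule genes were negative, with a median of -1.08, and 1 of them, Pck1, lay wholly below baseline. The median was -0.61 without baseline mouse 3, with 5 genes positive, -1.64 without STZ mouse 1 and -0.15 with the tubule mean as a covariate, with 11 positive. In the controls it was 0.12, from -0.58 without control STZ mouse 3 to 0.58 without control baseline mouse 2.

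Of 20 p53 response genes, 6 lay wholly above baseline and none below, with a median of 0.28 (0.18 without STZ mouse 2, controls 0.39). Aen, a nuclease induced by p53, was 21.9 ± 1.79 and 34.7 ± 3.88 CPM (0.66, adjusted p = 0.114), and Gdf15 1.98 ± 1.07 and 5.82 ± 2.28 CPM (1.55, adjusted p = 0.212). Adm, the vasodilator adrenomedullin, was 131, 106 and 126 CPM at baseline and 207, 247 and 279 CPM after STZ (1.01, adjusted p = 0.0772), with 0.93 in the controls. Of the 28 oxidative phosphorylation genes and the 22 cell cycle genes, none had an unadjusted p under 0.05. Interferon-stimulated genes were positive in 17 of 18, with a median of 0.44 (controls 0.32), and none had an unadjusted p under 0.05. Their median was 0.19 without baseline mouse 3 and 0.89 without baseline mouse 1, where 9 had an unadjusted p under 0.05. Core clock genes had a median of -0.33 in the knockouts and 0.35 in the controls, with 1 of 18 wholly above and 1 wholly below baseline, and the time of day of collection is not given in the sources used here. The clock median in the knockouts was -0.012 without baseline mouse 1, with 9 of 18 positive, -0.067 without STZ mouse 1 and -0.041 with sex as a covariate, and in the controls it was 0.17 without control STZ mouse 1. Of 20 fatty acid oxidation and PPAR target genes, 18 were negative with a median of -0.32 (controls 0.24), and this list holds many genes of the proximal tubule. Its median was -0.038 without baseline mouse 3, with 9 of 20 positive, and -0.064 with the tubule mean as a covariate.

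**Figure D5:**
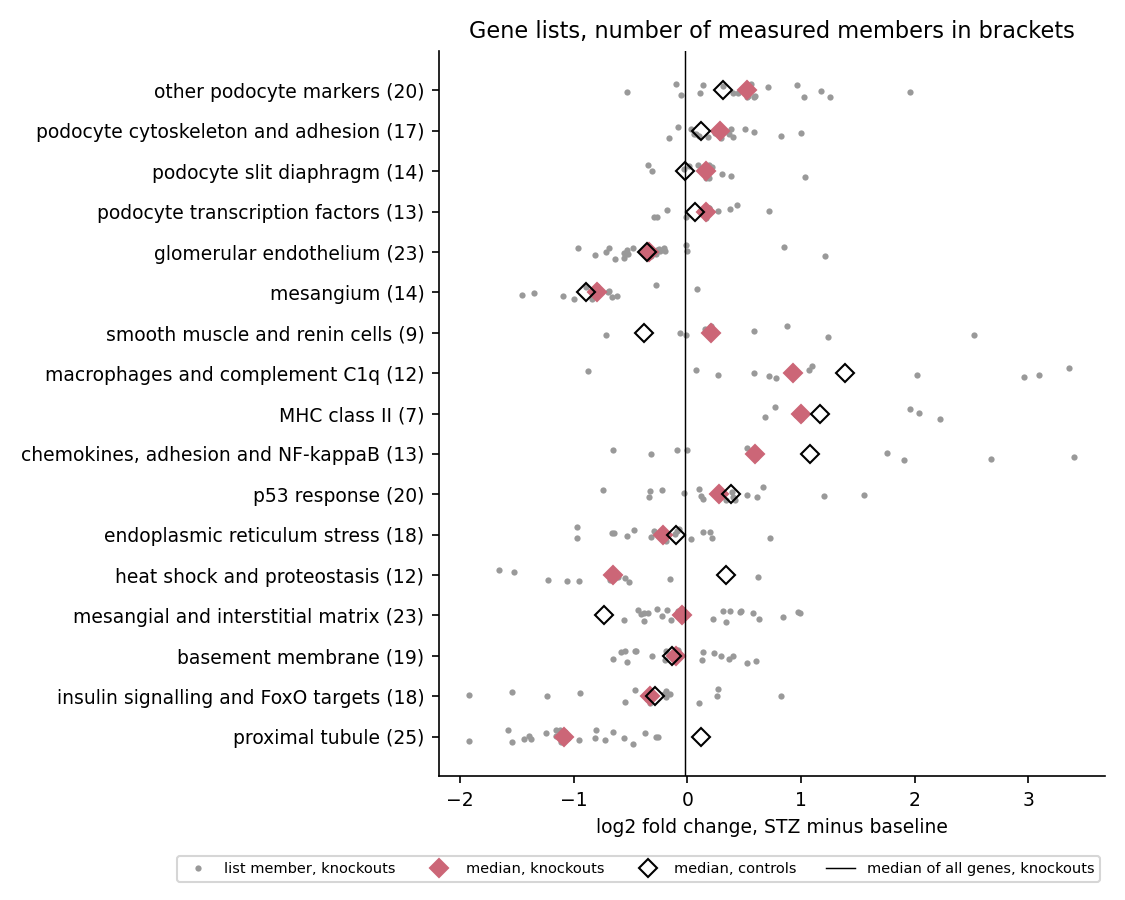
Log2 fold change (STZ minus baseline) of the members of 17 gene lists in the knockouts (grey points), with the list medians in knockouts (red) and controls (open), and a line at the median of all genes in the knockouts. The knockout median is farthest below the line for proximal tubule and mesangium and farthest above it for MHC class II and macrophages, and the 2 genotypes lie far apart for proximal tubule, heat shock and matrix genes, where single control libraries move the control medians.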

How the data were processed

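The data are 12 mouse glomerular RNA-seq libraries, 3 in each of 4 groups. The authors deposited 1 table per library of estimated counts per gene symbol, not scaled to depth. From 10.5% to 11.5% of each library's values end in 0.5, so they were treated as estimated counts and rounded to whole numbers. BWA and mm10 are named, per the submitters' processing notes, without a version or role. Not given in the sources used here are the counting tool, annotation and strand setting. The 7 blank values of the knockout libraries were taken as 0. The 6 pairs within the knockout groups differed by a chi-square per degree of freedom of 67.0 to 288, far above sampling noise.

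Genes listed in both sets of tables were filtered with filterByExpr (minimum count 10), scaled by TMM and tested with edgeR 4.0.16 (limma 3.58.1, R 4.3.3), calling an adjusted p under 0.05. The 6 knockout libraries were fitted alone, the 6 controls alone, and the interaction on all 12. The SE was derived from the F statistic. The fit of the knockout comparison was tested on simulated counts, and the control and interaction fits were not. Nothing says that the mice of a group were handled apart, so p-values measure the spread between these mice.

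The comparison and the gene lists were chosen with earlier results of these data known, and 3 lists, named as such, were chosen after values were seen. The text names Dach1, up to 12 called genes per direction by size of change among those of at least 1 CPM with groups that do not overlap, leaving out predicted and clone symbols (2 were left out), 5 genes per direction for the interaction, and up to 6 members per list by smallest p. The 2 clone-named genes, Cpq, Gpx8 and further list members were added after their values were seen. Some genes that the rule names are not reported here. Symbols matched RefSeq genes of GRCm38.p6 for 13120 of 13475 (97.37%). The alternatives were DESeq2 1.42.0, limma-voom, other scaling, filters and rounding, leaving out each library, and covariates for sex and proximal tubule RNA.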

Additional observations from a re-analysis of the deposited data

Results flagged for a closer look

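The change of Adamtsl1 with STZ differed between knockouts and controls by 1.52 on the log2 scale (edgeR's quasi-likelihood test of the interaction, SE 0.17, adjusted p = 0.0440). All 3 STZ knockouts lay above all 3 baseline knockouts, whereas the control means were 5.30 and 4.40 CPM. The adjusted p ran from 5.55e-10 with DESeq2 to 0.177 without control baseline mouse 1, and it was 0.113 with limma-voom, 0.0659 with the tubule mean as a covariate and 0.126 with sex as a covariate. No explanation was tested.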

How the results depend on the processing

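The count of 24 called genes in the knockouts was unchanged with DESeq2-type size factors in edgeR, without a filter and with values rounded down, and was 28 with limma-voom and 25 with at least 100 counts in at least 3 libraries. It was 804 with DESeq2 (433 higher, 371 lower), 260 with the tubule mean as a covariate (115 higher, 145 lower), 252 with all 12 libraries in the fit (181 higher, 71 lower) and 9 with sex as a covariate (2 higher, 7 lower), against 15 higher and 9 lower. Leaving out each library in turn gave 1 to 10 called genes: 10 without STZ mouse 1, 2 without STZ mouse 2, 1 without STZ mouse 3, 8 without baseline mouse 1, 1 without baseline mouse 2 and 7 without baseline mouse 3. These fits have 5 libraries. No called gene changed sign in any of these fits. With all 12 libraries, 22 of the 24 kept their call, and Cyp26a1 (adjusted p = 0.0650) and Kcnf1 (adjusted p = 0.166) did not. In the controls the 31 calls became 410 with DESeq2 and 4 to 12 without 1 library. The single interaction call became 2 with DESeq2-type size factors in edgeR, 31 with DESeq2, 2 with at least 100 counts in at least 3 libraries, 0 with limma-voom, where 411 genes had an unadjusted p under 0.05, 0 with the tubule mean (703 unadjusted) and 0 with sex (538 unadjusted) as a covariate, and 0 to 2 without 1 library (291 to 1159 unadjusted), with Adamtsl1 called in none of those 12 fits. For these shifts the cause was not tested. Of the genes listed, Pdia6 changed sign, from 0.03 to -0.03448 without STZ mouse 1 and -0.05436 without baseline mouse 3, within a range up to 0.08254 when 1 library was left out. No paired analysis was possible because the labels give the mice no replicate numbers that are shared between groups. Treatment, depth and listing rule coincide, so greater depth after STZ limits what a difference in low genes shows.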

Other observations

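Genes listed in 1 set of tables alone entered no comparison. The STZ tables held 2818 symbols that the baseline tables did not list, with a median of 1.74 CPM in the knockout STZ libraries, and Clec7a, a myeloid lectin receptor for fungal glucans, was among those of highest mean level (6.2 CPM). The baseline tables held 5 symbols not listed after STZ, and Tmem215 had 345.5, 2.5 and 8.5 counts in the 3 baseline knockouts.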
